A study of Homo sapiens with 12 samples.

Results

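The chromosome 1q segment described here runs from the zinc transporter gene SLC39A1 to KHDC4, and it holds the adaptor gene SHC1 and the ephrin-A genes EFNA4, EFNA3 and EFNA1. Its members were the genes on chromosome 1 whose smallest listed start lay between 153959099 and 155934400 (GRCh38, 1.98 Mb) and whose mean level was at least 1 CPM (counts scaled to library size) over the 6 FaDu libraries. Of 58051 genes in the count files, 113 lay in the interval and 49 met the level limit, among 12955 genes at that limit in all and 1324 on chromosome 1. The other 64 genes of the interval stayed below it, and 24 of these had 0 counts in all 12 libraries. Of the 49 members, 45 were protein coding, and the rest were the pseudogenes GBAP1, MTX1P1 and MSTO2P and the antisense RNA gene ASH1L-AS1. The interval was chosen by the measured fold changes of its genes, which were lower in FaDu cells resistant to erlotinib than in FaDu parental cells, so the values of that comparison are given as a description, without a test.

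The libraries came from head and neck squamous cell carcinoma (HNSCC) lines that had been made resistant to inhibitors of the epidermal growth factor receptor (EGFR). FaDu is a line from a carcinoma of the hypopharynx and Cal27 a line from a carcinoma of the tongue, and the genotype of all 12 samples was labelled WT. Each line gave parental cells, cells resistant to afatinib (AfaR), which blocks several ERBB receptors irreversibly, and cells resistant to erlotinib (ErlR), which blocks EGFR reversibly, with 2 biological replicates in each of the 6 groups. Per the study's methods, each resistant model was a population raised by stepwise increases of drug and kept in drug until a day before the experiments, so the replicates are samples of 1 selected population and the p-values measure the spread between such samples. Poly(A) RNA from cell pellets was sequenced with ERCC spike-in RNA added, and all 12 libraries carried the same batch label.

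SHC1 encodes an adaptor that binds phosphorylated EGFR and other receptors and recruits GRB2 and SOS, which load RAS with GTP. Ephrin-A proteins are ligands anchored in the membrane that bind EPHA receptors on neighbouring cells, and both partners of the contact can signal. CKS1B, which starts next to SHC1, is the cofactor with which SKP2 marks the cell-cycle inhibitor p27 for degradation. The same stretch of the long arm also encodes ADAR, which edits adenosine to inosine in double-stranded RNA, the mevalonate pathway enzymes PMVK and FDPS, the sheddase ADAM15, the interleukin-6 receptor IL6R and the mucin MUC1. Gain of the long arm of chromosome 1 is common in carcinomas.

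Promoter windows of 300 bases, 250 before and 50 after the RefSeq start on GRCh38.p14, were available for 42 of the 49 members. Those of SHC1, CKS1B and the ephrin-A genes are printed because the results turn on these genes and because SHC1 and CKS1B are transcribed away from each other. Their gene starts lie 258 bases apart in the annotation used for the counts, which differ from the RefSeq starts that set the windows. Capitals mark the GC box (GGGCGG), the CCAAT box (CCAAT) and the ETS site (CCGGAAG), each found on either strand, so that a match on the other strand is in capitals as its reverse complement. The windows are chr1:154974327-154974626 on the minus strand for SHC1 and, on the plus strand, chr1:154974431-154974730 for CKS1B, chr1:155127626-155127925 for EFNA1, chr1:155078587-155078886 for EFNA3 and chr1:155063490-155063789 for EFNA4.
SHC1: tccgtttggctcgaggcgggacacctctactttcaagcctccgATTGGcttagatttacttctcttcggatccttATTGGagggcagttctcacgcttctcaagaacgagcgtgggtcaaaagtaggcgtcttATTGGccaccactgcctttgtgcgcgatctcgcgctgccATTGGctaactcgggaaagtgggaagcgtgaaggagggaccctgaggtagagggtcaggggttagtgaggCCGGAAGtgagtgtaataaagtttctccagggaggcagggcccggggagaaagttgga
CKS1B: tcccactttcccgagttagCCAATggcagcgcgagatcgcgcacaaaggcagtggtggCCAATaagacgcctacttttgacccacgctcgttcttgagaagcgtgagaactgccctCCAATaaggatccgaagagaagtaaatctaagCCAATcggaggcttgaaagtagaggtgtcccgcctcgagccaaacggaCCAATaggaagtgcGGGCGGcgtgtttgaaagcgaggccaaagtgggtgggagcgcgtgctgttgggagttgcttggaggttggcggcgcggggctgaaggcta
EFNA1: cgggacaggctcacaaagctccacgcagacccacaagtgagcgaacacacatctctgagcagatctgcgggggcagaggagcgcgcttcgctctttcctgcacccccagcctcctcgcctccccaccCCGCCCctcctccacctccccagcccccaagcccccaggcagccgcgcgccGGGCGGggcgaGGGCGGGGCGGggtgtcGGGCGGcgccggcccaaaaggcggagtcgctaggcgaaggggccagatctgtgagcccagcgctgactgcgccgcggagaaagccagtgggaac
EFNA3: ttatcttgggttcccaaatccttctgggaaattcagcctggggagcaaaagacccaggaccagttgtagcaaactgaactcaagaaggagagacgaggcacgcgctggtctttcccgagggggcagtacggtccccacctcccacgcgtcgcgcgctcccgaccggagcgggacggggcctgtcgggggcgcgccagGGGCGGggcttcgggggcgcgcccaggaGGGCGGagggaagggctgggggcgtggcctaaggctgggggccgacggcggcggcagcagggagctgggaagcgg
EFNA4: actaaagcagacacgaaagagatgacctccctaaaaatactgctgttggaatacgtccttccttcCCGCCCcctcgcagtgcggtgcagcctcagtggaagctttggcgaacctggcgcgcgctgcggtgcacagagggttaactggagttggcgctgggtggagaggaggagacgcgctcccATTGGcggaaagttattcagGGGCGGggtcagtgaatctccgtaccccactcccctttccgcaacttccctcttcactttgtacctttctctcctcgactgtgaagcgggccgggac

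The SHC1 and CKS1B windows shared 196 bases, which held 4 CCAAT boxes, so that these count for both genes. CKS1B had 5 CCAAT boxes in all and a GC box of its own, and SHC1 had an ETS site. EFNA1 had 5 GC boxes, of which a neighbouring pair overlapped, and EFNA3 and EFNA4 had 2 each, with a CCAAT box in EFNA4. Over the members, 31 of 42 windows (73.8%) held a GC box, against 44.6% of all 27305 windows in the table. The members had passed a limit on level and the 27305 windows had not, so the shares compare unlike sets. The CCAAT box occurred in 14 member windows (33.3%) against 35.7% of all, and the ETS site in 5 (11.9%) against 10.7%. The TATA box (TATAAA) was found in 3 member windows (7.14%, against 12.0% of all) and the E-box CACGTG in 6 (14.3%, against 7.43%). The median GC content was 61.7% in the member windows and 58.3% in all windows. These matches describe letters in a window and say nothing about whether a factor was bound.

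Gene counts summed to between 16334937 and 23399259 per library. Markers of squamous epithelium were present in all 12 libraries, with summed levels of 909 to 12461 CPM, the lowest in Cal27 AfaR. The fibroblast list summed to 3.61 to 338 CPM, the leukocyte list to 8.95 to 16.2 CPM and the endothelial list to 2.60 to 38.8 CPM. CD3E, which defines T cells, was at 0 in 11 of 12 libraries. The ERCC spike-in reads made up 5.79% to 5.82% of counts in FaDu parental and 5.64% to 5.74% in FaDu AfaR libraries. They made up 3.95% to 4.60% in FaDu ErlR and 3.86% to 4.54% in Cal27 libraries. Gene counts were split alike, at 20156109 or more in FaDu parental and AfaR, 16408108 and 16383694 in FaDu ErlR, and at most 16689855 in Cal27. FaDu ErlR thus differed from FaDu parental in depth and ERCC share too, and the part of this in the FaDu ErlR results was not tested.

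In FaDu ErlR, the genes of the segment were lower almost throughout. The summed level of the 49 members came to 4860 and 4919 CPM for the parental libraries of FaDu, to 4458 and 4385 CPM for AfaR, and to 3685 and 3666 CPM for ErlR. The ErlR libraries were thus the lowest of the FaDu libraries and did not overlap with either other group, at 75.2% of the parental mean. In Cal27, the sums were 4056 and 3984 CPM in parental cells, 3866 and 3917 CPM in AfaR and 4120 and 3949 CPM in ErlR, and the ErlR sums spanned the parental ones. This overlap rested on the 3 members highest in FaDu parental cells. Without them, the Cal27 sums were 2641 and 2692 CPM in parental cells, 2407 and 2418 CPM in AfaR and 2426 and 2475 CPM in ErlR. Both resistant groups then lay below both parental libraries. The FaDu sums without them were 2919 and 2983 CPM in parental cells, 2752 and 2733 CPM in AfaR and 2166 and 2162 CPM in ErlR. In bulk RNA, fewer cells that express a gene and less RNA per cell cannot be told apart.

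The median log2 fold change of the members in FaDu ErlR against parental was -0.49 (quartiles -0.71 to -0.37), beside -0.00123 over all 15092 genes tested in FaDu. Of the 49 members, 43 had both ErlR libraries below both parental libraries, beside 27.1% of all genes. ATP8B2, IL6R, THBS3 and SYT11 lay above both parental libraries, beside 26.8% of all genes, and EFNA3 and MSTO2P overlapped. All 31 members with a parental mean of at least 20 CPM lay below both parental libraries, with log2 fold changes of -0.94 to -0.18. Among the 18 members under 20 CPM, 12 did. The median member was at 71.2% of its parental level. With library sizes set by the ERCC spike-ins in place of the trimmed mean of M values (TMM), the median of all FaDu genes moved to 0.49 and that of the members to -0.011, which left the members 0.50 below all genes, and 11 members lay below both parental libraries.

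**Figure D1:**
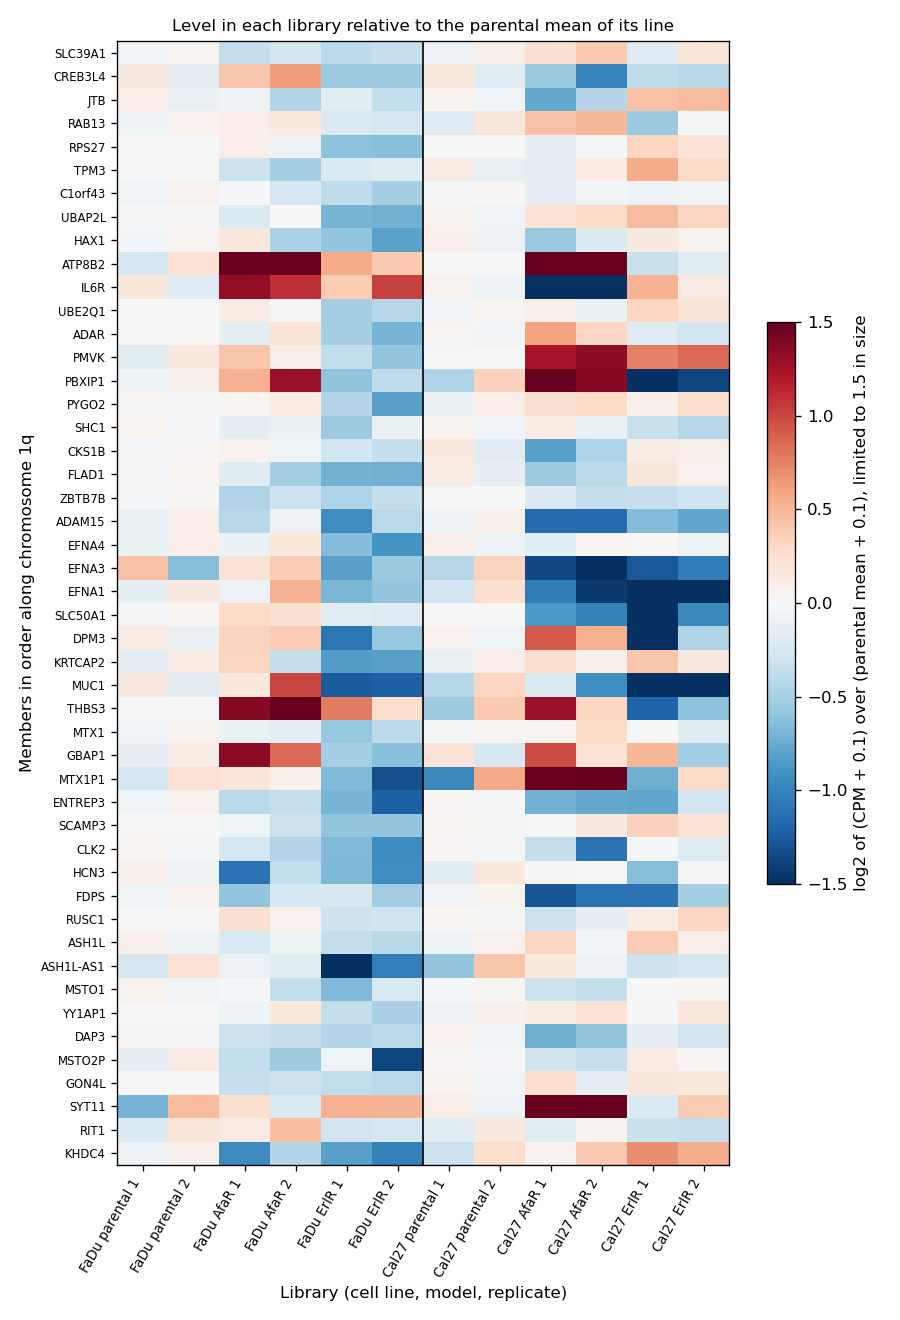
Level of 48 of the 49 members (rows, in order along the chromosome) in each of the 12 libraries (columns), as log2 of (CPM + 0.1) over (parental mean + 0.1) of the same line, with colours limited to 1.5 in size. The FaDu ErlR columns are blue in most rows, with ATP8B2, IL6R, THBS3 and SYT11 in red, and the Cal27 columns mix both colours.

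Among the ephrin-A genes, EFNA4 was at 5.84 and 6.72 CPM in FaDu parental and at 3.98 and 3.36 CPM in FaDu ErlR libraries. Its log2 fold change was -0.77 ± 0.25 (SE, 2 against 2 libraries, as for all fold changes against parental cells here). EFNA1 was at 10.5 and 12.7 CPM in parental and at 7.15 and 7.67 CPM in ErlR libraries, a log2 fold change of -0.64 ± 0.24. Neither gene overlapped between the groups. EFNA3 was near the level limit, with 34 and 14 counts in parental and 10 and 12 counts in ErlR libraries, and its levels of 1.61 and 0.713 CPM overlapped those of 0.622 and 0.761 CPM.

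SHC1 (ENSG00000160691, chr1:154962298-154974395, minus strand) stood at 193 and 185 CPM in the parental cells of FaDu, at 172 and 177 CPM in AfaR cells, and at 130.0 and 175 CPM in ErlR cells. Its log2 fold change in ErlR was -0.31 ± 0.14, the ErlR libraries lay apart from each other, and the higher of them stood between the AfaR libraries. Its divergent neighbour CKS1B was at 202 and 206 CPM in parental and 168 and 159 CPM in ErlR libraries, a log2 fold change of -0.32 ± 0.10 with no overlap. The gene spans of SHC1 and PYGO2, a cofactor of WNT signalling, share 1556 bases on the same strand, and how reads there were assigned is not given in the sources used here. The small GTPase genes RAB13, of vesicle traffic, and RIT1, a relative of RAS, had log2 fold changes of -0.23 and -0.28.

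By role, all 3 genes of RNA editing and splicing were below both parental libraries, with a median log2 fold change of -0.80. The role counts here and below describe the comparison that chose the members. In it, 43 of 49 members (87.8%) lay below both parental libraries, beside 27.1% of all genes, so a role with all its genes lower is near the members' own share. ADAR went from 408 and 408 CPM to 288 and 252 CPM, the splicing kinase gene CLK2 from 46.0 and 44.0 CPM to 28.4 and 23.3 CPM, and KHDC4, an RNA-binding protein gene, from 30.4 and 33.8 CPM to 18.2 and 15.8 CPM. These 3 genes had log2 fold changes of -0.60, -0.80 and -0.91. All 11 genes of cell cycle, ubiquitin and chromatin were lower too, with a median of -0.42, among them the histone methyltransferase gene ASH1L at -0.39 and UBAP2L at -0.71.

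The 6 metabolic genes, all below both parental libraries, had a median log2 fold change of -0.64. FDPS, which makes farnesyl pyrophosphate, was at 137 and 150.3 CPM in parental and at 122 and 100.3 CPM in ErlR libraries. PMVK, which phosphorylates phosphomevalonate, had a log2 fold change of -0.48, and DPM3, a subunit of dolichol phosphate mannose synthase, one of -0.82. The 8 genes of mitochondria, ribosome and trafficking had a median of -0.54, all below both parental libraries. The ribosomal protein gene RPS27, the member with the highest level per length (401 RPKM, the CPM per kilobase of gene length, over the FaDu libraries, ahead of TPM3 at 115 and JTB at 111), went from 424 and 429 CPM to 279 and 276 CPM. The tropomyosin gene TPM3 changed by -0.19, from 1108 and 1099.5 CPM to 952 and 977 CPM.

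Receptors and surface proteins were the most mixed group. Of the 9, 5 were below both parental libraries, and the group median was -0.18. Of the 3 ephrin-A genes, 2 were below, and of the 4 members in no named role, 3 were. ATP8B2, IL6R, THBS3 and SYT11, which rose, all had parental means under 20 CPM, so role and level are not separated here. The rises of THBS3 and SYT11 rest on few reads. THBS3 had 13 and 12 counts in FaDu parental and 18 and 12 in ErlR libraries, and SYT11 had 15 and 34 against 29 and 28. The mucin gene MUC1 was at 2.61 and 2.09 CPM in FaDu parental and at 0.932 and 0.951 CPM in ErlR libraries (log2 fold change -1.32 ± 0.42), and ADAM15 was at 132 and 154 CPM against 75.0 and 108 CPM (-0.64 ± 0.18). IL6R went the other way, from 12.6 and 9.78 CPM to 14.5 and 22.8 CPM (0.74 ± 0.23), as did the phospholipid flippase gene ATP8B2, from 3.04 and 4.28 CPM to 5.41 and 4.82 CPM (0.49 ± 0.27). Among members with a mean of at least 10 CPM, ENTREP3 had the lowest fold change (-0.94 ± 0.17), going from 66.1 and 72.1 CPM to 42.5 and 29.4 CPM, followed by KHDC4, KRTCAP2 (-0.83), DPM3 and CLK2. KRTCAP2, a subunit of the oligosaccharyltransferase, went from 22.4 and 26.6 CPM to 13.6 and 13.8 CPM and DPM3 from 14.3 and 12.3 CPM to 6.15 and 8.94 CPM. The highest were IL6R, ATP8B2 and the sugar transporter gene SLC50A1 (-0.18), at 37.3 and 39.1 CPM against 34.1 and 33.3 CPM.

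**Figure D2:**
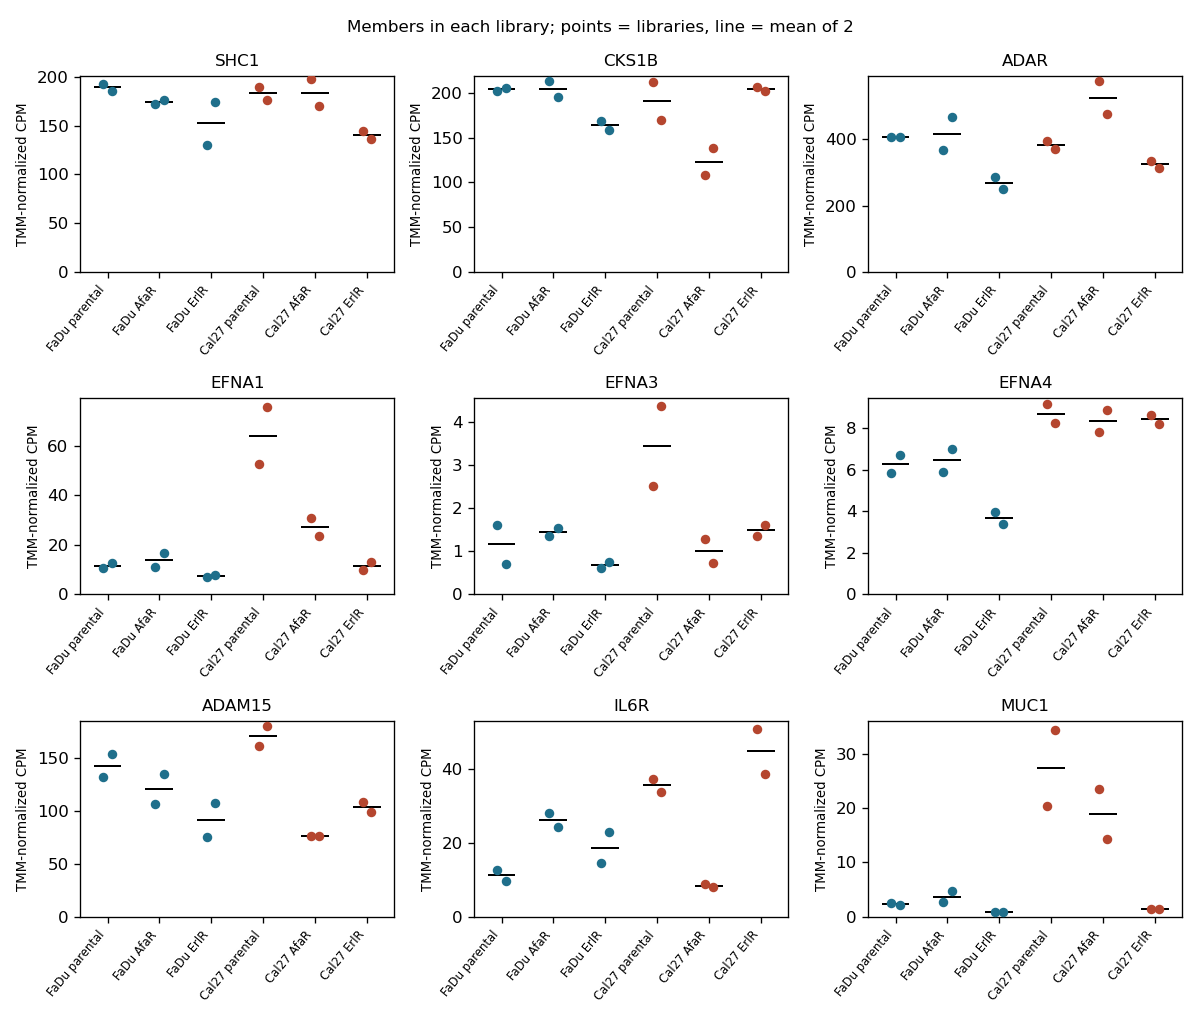
TMM-normalized CPM of 9 members in each library, with a point for each library and a line at the mean of 2 libraries, each axis starting at 0. EFNA4 is lower in FaDu ErlR than in the other FaDu groups, at 3.98 and 3.36 CPM, and EFNA1 and MUC1 lie far below the parental points in Cal27 ErlR, at 9.68 and 12.9 CPM and at 1.36 and 1.37 CPM.

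Along the segment, the median log2 fold change in FaDu ErlR was -0.40 from SLC39A1 to ATP8B2, -0.47 from IL6R to ZBTB7B, -0.70 from ADAM15 to MTX1, -0.62 from GBAP1 to ASH1L and -0.42 from ASH1L-AS1 to KHDC4. The stretch with the ephrin-A genes had the lowest of these medians. Members on the plus strand (24) had a median of -0.59 and those on the minus strand (25) one of -0.48.

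The lowered stretch did not end at the limits of the segment. The nearest genes outside, at the same level limit, were CRTC2 (-0.57) and DENND4B (-0.72) on the side of the centromere and ARHGEF2 (-0.38) and SSR2 (-0.41) on the other, beside -0.37 for SLC39A1 and -0.91 for KHDC4 just inside. In windows of 31 genes, the medians towards the centromere were -0.44 from PIP5K1A to CRTC2 (22 of 31 below both parental libraries), -0.42 from SV2A to VPS72 and -0.25 from RNF115 to BOLA1, and then 0.03 from CD101 to GPR89A. Towards the telomere they were -0.46 from ARHGEF2 to ARHGEF11 (25 of 31), -0.27 from KRT8P45 to USP21, -0.37 from PPOX to MPC2, -0.25 from DCAF6 to CACYBP, -0.24 in the window that starts at MRPS14 and -0.07 from ARPC5 to DDX59. The lowering was not even within these windows. From -0.41 to -0.34 Mb of the SLC39A1 start, among S100 genes in the window from PIP5K1A to CRTC2, the running median of 9 genes was 0.0015. The 522 genes elsewhere on the long arm had a median of -0.17, with 47.7% below both parental libraries, and the 753 genes of the short arm one of -0.04, with 31.9%. At the level limit, the members just inside were MSTO2P (1.02 CPM), EFNA3 (1.11 CPM) and GBAP1 (1.13 CPM), and RUSC1-AS1 (0.859 CPM) was among those just outside.

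**Figure D3:**
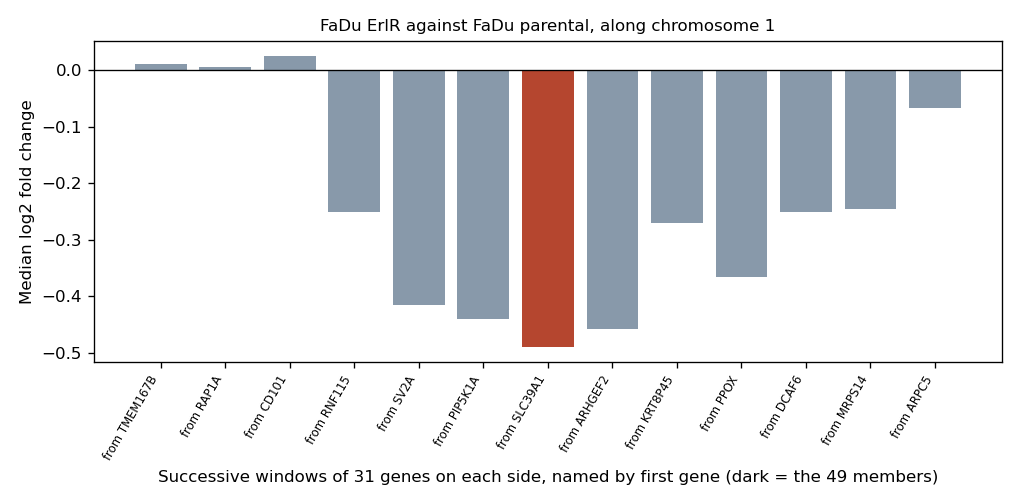
Median log2 fold change of FaDu ErlR against FaDu parental in the 49 members (dark bar) and in successive windows of 31 genes on each side along chromosome 1, named by their first gene. The medians stay below -0.2 from the window that starts at RNF115 to the window that starts at MRPS14, lie near 0 in the windows left of these, and reach -0.07 at the right end.

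FaDu AfaR asked whether the same genes moved in cells of the same line resistant to the other drug; this comparison shares its parental libraries with FaDu ErlR. The median log2 fold change of the members was 0.01, beside -0.000714 over all genes. By edgeR's quasi-likelihood test with Benjamini-Hochberg adjustment at 0.05, 4 members were lower (8.16%, beside 7.49% of all genes) and 5 were higher (10.2%, beside 10.4%). Of the members, 3 (EFNA3, THBS3 and GBAP1) met the level limit only through the AfaR libraries, so the rule favoured a rise in them, and without these 3 the test called 4 of 46 lower and 4 of 46 higher (8.70% each), with a median of -0.047. With a log2 fold change over 1 in size as well, 0 were lower (beside 0.954%) and 3 higher (beside 6.48%), or 2 without those members. Both AfaR libraries lay below both parental libraries for 15 members (beside 32.8%) and above both for 14 (beside 32.7%), or for 15 and 12 of the 46. The endothelial list summed to 3.32 and 5.86 CPM in FaDu parental and to 6.40 and 19.8 CPM in FaDu AfaR libraries, and its part in these results was not tested.

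ATP8B2 rose from 3.04 and 4.28 CPM in FaDu parental to 20.2 and 29.6 CPM in AfaR libraries (log2 fold change 2.77 ± 0.26, edgeR adjusted p = 0.000863). IL6R rose from 12.6 and 9.78 CPM to 28.2 and 24.1 CPM (1.22 ± 0.23, edgeR adjusted p = 0.0105). Neither gene overlapped between the groups. PBXIP1 rose from 9.07 and 10.1 CPM to 13.9 and 23.6 CPM (0.97 ± 0.25, edgeR adjusted p = 0.0298), with the groups apart. The thrombospondin gene THBS3, at 0.617 and 0.611 CPM in parental and 1.74 and 1.94 CPM in AfaR libraries, was a member only through its AfaR level, so its values are a description. TPM3 fell from 1108 and 1099.5 CPM to 881 and 784 CPM (-0.41 ± 0.10, edgeR adjusted p = 0.0285), and KHDC4 from 30.4 and 33.8 CPM to 16.5 and 23.7 CPM (-0.67 ± 0.18, 0.0365). DAP3, a mitochondrial ribosome gene, fell from 149.5 and 146 CPM to 119.6 and 115 CPM (-0.33, edgeR adjusted p = 0.0461) and the transcriptional repressor gene ZBTB7B from 56.8 and 58.2 CPM to 41.9 and 45.8 CPM (-0.39, 0.048). ATP8B2 kept its call without any single library, while the other 8 lost theirs without either parental library, which left 1 gene higher and 0 lower in both cases.

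SHC1 (-0.12 ± 0.14, edgeR adjusted p = 0.583), EFNA1 (0.26 ± 0.23, 0.457), EFNA4 (0.04 ± 0.24, 0.926) and CKS1B (0.00 ± 0.10, 0.984) did not pass the test in FaDu AfaR. EFNA3 was at 1.36 and 1.54 CPM there, between its parental levels of 0.713 and 1.61 CPM. With ERCC library sizes, the median of all genes in this comparison moved by 0.18, and SHC1 then stood at 0.066.

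**Figure D4:**
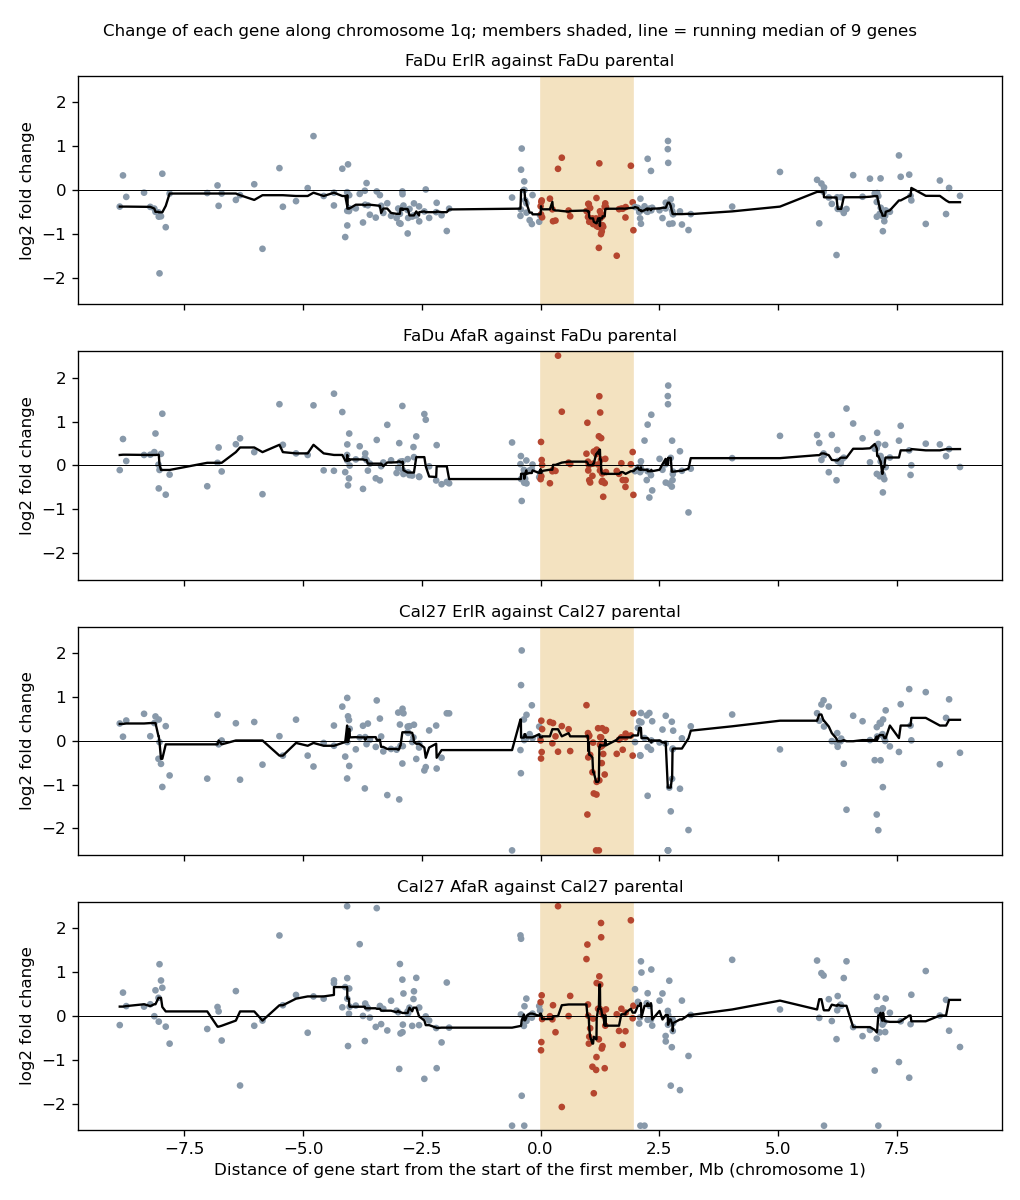
Log2 fold change of each gene at the level limit (points, members in red on a shaded band) against the distance in Mb of its start from that of the first member, for the 4 comparisons, with a running median of 9 genes as a line and points beyond the axis drawn at its edge. The line lies below 0 across the band for FaDu ErlR, where the member median is -0.49, and crosses 0 within it for the other comparisons, where the medians are 0.01, -0.04 and -0.00.

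In Cal27 AfaR, members changed in both directions. The median was -0.00, with 12 members lower (24.5%, beside 18.2% of all 15269 genes tested in Cal27) and 7 higher (14.3%, beside 19.5%), by the edgeR test. With a log2 fold change over 1 in size as well, 5 were lower (beside 8.06%) and 6 higher (beside 11.5%). The AfaR libraries lay below both parental libraries for 20 members (beside 36% of all genes) and above both for 13 (beside 36.2%). IL6R fell from 37.3 and 33.7 CPM to 8.87 and 7.97 CPM (log2 fold change -2.07 ± 0.18, edgeR adjusted p = 4.38e-05). ADAM15 fell from 161 and 179.9 CPM to 76.7 and 76.2 CPM (-1.16 ± 0.13, 0.000149), and FDPS from 233 and 249.8 CPM to 99.0 and 112 CPM (-1.19 ± 0.19, 0.00121). The groups were apart for all 3 genes.

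Of the ephrin-A genes, EFNA1 and EFNA3 passed the test in Cal27 AfaR. EFNA1 fell from 52.5 and 75.7 CPM to 31.0 and 23.6 CPM (-1.23 ± 0.22, edgeR adjusted p = 0.00237), and EFNA3 from 2.52 and 4.36 CPM to 1.29 and 0.719 CPM (-1.76 ± 0.45, 0.0132), a call that was lost without parental replicate 2 or AfaR replicate 2 (highest adjusted p = 0.0997, edgeR). EFNA4, at 9.13 and 8.24 CPM in parental and 7.80 and 8.87 CPM in AfaR libraries, overlapped between the groups (-0.06 ± 0.21, 0.851). SHC1 overlapped as well, at 189 and 176 CPM against 197 and 170.2 CPM (0.01 ± 0.13, edgeR adjusted p = 0.971), while CKS1B fell from 211 and 169 CPM to 108 and 138 CPM (-0.63 ± 0.16, 0.013), which did not hold without parental replicate 1 or AfaR replicate 1.

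ATP8B2 rose in Cal27 AfaR too, from 3.00 and 2.97 CPM to 38.4 and 25.7 CPM (3.42 ± 0.26, edgeR adjusted p = 1.75e-05). PMVK rose from 9.91 and 10.1 CPM to 23.6 and 25.5 CPM (1.30 ± 0.17, edgeR adjusted p = 0.000377) and PBXIP1 from 21.3 and 37.4 CPM to 105 and 76.1 CPM (1.63 ± 0.29, 0.00216). None of these 3 overlapped between groups. SYT11, a synaptotagmin gene, rose by 2.18 from 1.86 and 1.64 CPM, ADAR by 0.46 and the pseudogene MTX1P1 by 2.12, and reads of MTX1P1 and MTX1, as of MSTO1 and MSTO2P, may be shared between near-identical copies. JTB (-0.60), FLAD1 (-0.47), SLC50A1 (-0.94), ENTREP3 (-0.74), CLK2 (-0.69) and DAP3 (-0.66) were the other members that fell. Of the 19 members called, 11 kept the call under every alternative tried other than the limit on fold size, among them IL6R, ADAM15, EFNA1, FDPS, ATP8B2, PMVK and PBXIP1. EFNA3, CKS1B, JTB, ADAR, FLAD1, MTX1P1, ENTREP3 and CLK2 each lost it without at least 1 library. Cal27 AfaR also had the lowest squamous marker sums (909 and 1018 CPM) and the highest sums over the fibroblast list (324 and 338 CPM, against at most 41.4 CPM elsewhere), and the part of cell state or other cells in these results was not tested.

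In Cal27 ErlR, the drug for which the segment was lower in FaDu, the median was -0.04, beside -0.03 over all genes. The edgeR test called 7 members lower (14.3%, beside 15.3% of all genes) and 3 higher (6.12%, beside 12.3%), of which 4 and 0 had a log2 fold change over 1 in size (beside 9.92% and 3.56%). For 19 members the ErlR libraries lay below both parental libraries (beside 34.8%) and for 13 above both (beside 32.4%). MUC1 fell from 20.4 and 34.4 CPM to 1.36 and 1.37 CPM (log2 fold change -4.32 ± 0.37, edgeR adjusted p = 0.000107). EFNA1 fell from 52.5 and 75.7 CPM to 9.68 and 12.9 CPM (-2.50 ± 0.24, 0.000178). The groups lay far apart for both.

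SLC50A1 fell from 58.7 and 59.5 CPM to 20.2 and 30.3 CPM (-1.23 ± 0.19, edgeR adjusted p = 0.00196) and ADAM15 from 161 and 179.9 CPM to 108 and 99.0 CPM (-0.72 ± 0.13, 0.0033). PBXIP1, which had risen in Cal27 AfaR, fell to 7.02 and 11.2 CPM (-1.68 ± 0.31, 0.00429). FDPS (-0.77) and ENTREP3 (-0.51) were the remaining members that fell, and 3 rose. PMVK went from 9.91 and 10.1 CPM to 16.9 and 18.1 CPM (0.81 ± 0.17, edgeR adjusted p = 0.00725), JTB from 75.5 and 70.6 CPM to 98.9 and 101 CPM (0.46, 0.0415) and UBAP2L from 219.7 and 203 CPM to 294 and 264 CPM (0.40, 0.0421). None of the 3 overlapped between the groups. Without parental replicate 1 or ErlR replicate 1, 1 member was called higher in place of 3, and 6 of the 10 calls held under every alternative other than the limit on fold size, those of PMVK, PBXIP1, ADAM15, EFNA1, SLC50A1 and MUC1.

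SHC1 was at 144 and 136 CPM in Cal27 ErlR, below both parental libraries, but did not pass (-0.38 ± 0.13, edgeR adjusted p = 0.0552). EFNA3 (-1.20 ± 0.44, edgeR adjusted p = 0.0687) and EFNA4 (-0.04 ± 0.22, 0.898) did not pass either. Both Cal27 comparisons share their parental libraries. Between Cal27 parental and ErlR libraries, the endothelial list went from sums of 32.7 and 33.9 CPM to 2.60 and 6.28 CPM, and the fibroblast list from 29.9 and 41.4 CPM to 4.35 and 10.0 CPM, and their part in the Cal27 ErlR results was not tested.

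The AfaR effect differed between FaDu and Cal27 for 12 of the 49 members by an edgeR interaction test over the 12 libraries, beside 18.6% of all 16240 genes. For 8 of them, led by IL6R, the effect was higher in FaDu (beside 10.5% of all genes). For 4, among them PMVK, SLC39A1 and SYT11, it was higher in Cal27 (beside 8%). IL6R rose in FaDu AfaR and fell in Cal27 AfaR, a difference of 3.32 ± 0.32 in log2 fold change (edgeR adjusted p = 2.38e-05). EFNA1, which fell in Cal27 AfaR and did not pass in FaDu AfaR, differed by 1.51 ± 0.34 (edgeR adjusted p = 0.00882). EFNA3, counted among the 12, differed by 2.10 ± 0.66, given as a description since its FaDu AfaR level made it a member. The count was 5 without FaDu parental replicate 2 and 7 without FaDu AfaR replicate 2 or Cal27 AfaR replicate 2. The ErlR effects were not compared in this way, since one of them had chosen the members.

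Genes that act with the members, at other places in the genome, were listed by role, and 49 of 55 were tested in FaDu and 47 in Cal27. In FaDu ErlR, 3 were higher and 1 lower (2.58% and 1.6% of all genes, 4.18% in either direction). The ephrin-B ligand gene EFNB2 rose from 22.5 and 26.6 CPM to 53.5 and 69.5 CPM (1.33 ± 0.18, edgeR adjusted p = 0.00992), HRAS, a RAS gene downstream of SHC1 and GRB2, by 0.60 (0.0238) and the receptor gene EPHB2 by 0.59 (0.047), while the ephrin-A receptor gene EPHA2 fell by 0.48 ± 0.10 (0.0304). With ERCC library sizes, EPHA2 stood at 0.00749. None of the 4 calls held when each library was left out in turn: EFNB2 lost it without parental replicate 1 or ErlR replicate 2 (highest adjusted p = 0.072, edgeR), and the others without each of the 4 libraries compared. In FaDu AfaR, 5 were higher and 2 lower (17.9% of all genes in either direction), and all of them lost the call without parental replicate 1.

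In Cal27 AfaR, 14 partner genes were higher and 16 lower (37.6% of all genes passed in either direction), and 12 of the 30 calls held without each library in turn. Among the receptor and RAS partners of SHC1, EGFR fell (-0.87 ± 0.14, edgeR adjusted p = 0.00139) and ERBB3 fell (-1.94 ± 0.32, 0.00143), GAB1, a docking adaptor, rose (1.45), and 6 of 11 did not pass. Of the 9 ephrin receptor genes tested, 6 were higher and 2 lower, with EPHA1 falling from 24.1 and 25.6 CPM to 2.92 and 2.34 CPM (-3.24 ± 0.20, edgeR adjusted p = 6.33e-06). Of the 6 higher, EPHA3, EPHB2 and EPHB3 lost the call without parental replicate 1, and EPHA2 lost it without parental replicate 2 or AfaR replicate 2. EPHA4 and EPHB6 kept theirs without each library in turn. EFNB1 fell (-1.90) and EFNB3 rose (3.33) among the 4 ephrins outside the segment. IL6, the ligand of IL6R, rose from 28.9 and 49.2 CPM to 219.8 and 222 CPM (2.50 ± 0.43, edgeR adjusted p = 0.00189), and IL6ST, the shared signalling subunit, rose by 1.67, while IL6R itself fell. SKP2, the partner of CKS1B, fell (-1.07). Of the 10 mevalonate and sterol enzyme genes other than PMVK and FDPS, 6 fell, among them MVK (-2.26) and HMGCS1 (-1.95), and all 6 calls were lost without AfaR replicate 1.

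In Cal27 ErlR, 6 partner genes were higher and 8 lower (27.6% of all genes in either direction). EPHB2 fell from 77.5 and 111 CPM to 47.5 and 41.7 CPM (-1.08 ± 0.18, edgeR adjusted p = 0.00264), EPHB4 rose by 0.73 (0.00282) and JAK1, the kinase bound to IL6ST, fell (-0.75, edgeR adjusted p = 0.00259). These 3 calls held under every alternative tried other than the limit on fold size, which EPHB4 and JAK1 did not reach. EGFR (0.18, edgeR adjusted p = 0.358) did not pass.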

How the data were processed

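RNA-seq libraries of 12 samples were analysed from the deposited counts per gene (58051 genes, of which 56948 had a symbol in the name table, and 92 ERCC spike-ins). Per the submitters' processing notes, the authors trimmed reads (Trimmomatic 0.36), aligned them to GRCh38 (STAR 2.5.2b) and counted them with featureCounts (Subread 1.5.2); the strand setting is not given in the sources used here, and 18 members share bases with another member, in 10 pairs of which 9 lie on opposite strands. The deposited tables of normalized counts were not used.

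Counts were fitted per line with edgeR 4.0.16 (R 4.3.3) by its quasi-likelihood test, with TMM factors and filterByExpr, over the 6 libraries of a line, so that the groups shared 1 estimate of spread (biological coefficient of variation 14.5% in FaDu and 15.3% in Cal27). P-values were Benjamini-Hochberg adjusted over all genes tested (15092 and 15269; all 49 members in both), and a gene was called at 0.05. The AfaR effect was compared between lines in 1 fit of 12 libraries. CPM values are TMM-normalized within a line, and RPKM divides them by the length listed in the files. The SE is the log2 fold change divided by the square root of F. DESeq2 1.42.0, other normalizations and filters, ERCC library sizes, a replicate block, other sets of libraries and leaving out each library were alternatives. Scripts were tested on simulated data. Results of some genes are not reported here by name, though counts include them. The members, gene lists and rules were chosen with earlier results of these data known. Values per library were given for SHC1 and the ephrin-A genes, for the 5 lowest and 3 highest log2 fold changes in FaDu ErlR at a mean of at least 10 CPM, for up to 4 members per direction with the smallest adjusted p in each other comparison at a mean of at least 5 CPM, for the 3 highest RPKM and for the genes at each limit; partner genes were named from those that passed. CKS1B, ADAR, MUC1, FDPS, PMVK, THBS3, CREB3L4 and UBAP2L outside these rules were chosen after their values were seen.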

Additional observations from a re-analysis of the deposited data

Results flagged for a closer look

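For 12 of the 49 members the AfaR effect differed between FaDu and Cal27 by the edgeR interaction test (adjusted p from 2.38e-05 to 0.0471), beside 18.6% of all genes. Of these members, 11 are listed. The differences in log2 fold change, FaDu minus Cal27, were 3.32 for IL6R, 1.51 for EFNA1, 1.34 for CREB3L4, 1.22 for SLC50A1, 0.94 for ADAM15, 0.81 for FDPS and 0.65 for CKS1B. EFNA3, at 2.10, is given as a description, since its FaDu AfaR level made it a member. The differences were -0.61 for SLC39A1, -1.01 for PMVK and -2.13 for SYT11, whose effects were higher in Cal27. CREB3L4, a transcription factor gene, was at 11.2 and 9.17 CPM in FaDu parental and 13.6 and 15.8 CPM in FaDu AfaR libraries. In Cal27 it was at 6.13 and 4.91 CPM in parental and 3.70 and 2.70 CPM in AfaR libraries. The groups were apart in both lines and in opposite directions, but CREB3L4 did not pass the test in FaDu AfaR (0.53) or Cal27 AfaR (-0.78). Of all genes, 32.7% lay above both parental libraries in FaDu AfaR and 36% below both in Cal27 AfaR. PMVK was called higher in Cal27 AfaR.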

How the results depend on the processing

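The median log2 fold change of the members in FaDu ErlR was -0.54 to -0.49 without single libraries and -0.011 with ERCC library sizes, under which 11 in place of 43 members lay below both parental libraries. In FaDu AfaR the median was -0.047 for members of at least 5 CPM, 0.084 with upper-quartile scaling, 0.19 with ERCC sizes and -0.089 to 0.020 without single libraries. It was -0.047 too for the 46 members that met 1 CPM over the parental and ErlR libraries, an alternative chosen after seeing the data. In Cal27 ErlR it was 0.012, -0.10 and -0.014 under the same 3 settings, -0.076 with at least 10 counts in every library, and -0.054 to 0.0055 without single libraries. Members called lower in FaDu AfaR (4) were 0 with a log2 fold change over 1, upper-quartile or ERCC scaling, 2 with at least 10 counts or with 4 libraries in the fit, 1 with 12 libraries and 0 to 2 without single libraries; those called higher (5) were 3 over a log2 fold change of 1 and 1 to 5 without single libraries. In Cal27 AfaR, 5 of 12 lower calls exceeded a log2 fold change of 1, and in Cal27 ErlR 4 of 7 did. The 3 higher calls in Cal27 ErlR became 0 over a log2 fold change of 1, 1 with upper-quartile scaling, 5 without the filter, with DESeq2 or with 12 libraries, and 1 to 3 without single libraries. Differences between lines numbered 5 to 13 without single libraries. Partner genes called without single libraries numbered 15 to 33 in Cal27 AfaR, 7 to 19 in Cal27 ErlR, 0 to 8 in FaDu AfaR and 0 to 4 in FaDu ErlR; without the filter they were 23 in Cal27 ErlR, 16 in FaDu AfaR and 8 in FaDu ErlR, where ERCC sizes gave 21 and the fit of 12 libraries 2. Signs turned for SHC1 in FaDu AfaR (0.066, ERCC sizes) and EPHA2 in FaDu ErlR (0.00749, ERCC sizes), and without a single library for EFNA4 (range -0.096 to 0.16), EFNA3 (-0.15 to 1.02) and EFNA1 (-0.087 to 0.53) in FaDu AfaR, SHC1 (-0.10 to 0.12) and EFNA4 (-0.14 to 0.034) in Cal27 AfaR, and EFNA4 (-0.11 to 0.052) in Cal27 ErlR; of these only EPHA2 had been called. The causes were not tested.

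Replicate numbers did not pair the samples: the correlation of replicate differences between groups ranged from -0.26 to 0.16. With the replicate number as a block, members called lower in FaDu AfaR numbered 2 in place of 4, 3 member calls were lost in Cal27 ErlR and none in Cal27 AfaR. Members with few counts, such as EFNA3 with 10 counts in a FaDu ErlR library, limit what could be detected at this depth.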

Other observations

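Over the 12 libraries, the members whose log2 level was most like that of SHC1 were DPM3 (Pearson r = 0.70), ZBTB7B (0.64) and MTX1 (0.62), given as a description, since the libraries share 2 lines and 6 groups. In the FaDu libraries the members spanned from 401 RPKM (RPS27) to 0.250 RPKM (THBS3).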
